A study of Mus musculus with 6 samples.

Results

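The genes described here are 39 DNA replication and S phase genes, a named list covering origin licensing, helicase activation, polymerases, the sliding clamp, nucleotide supply, chromatin assembly and S phase entry. Members were the probe sets whose only gene symbol in the platform table is on the list, and all 39 genes were measured, by 42 of the 35557 probe sets in the deposited table. Where a gene had more than 1 such probe set (Tk1, Pcna and Slbp), the brightest stood for it. RNA came from primary microglia, the macrophages of the brain, grown from the cerebral cortex of mice aged 2 days, collected after 10 days in culture, and replated for 24 h, with no treatment named in the labels. The study hybridised 6 Affymetrix arrays, 3 with RNA of fosB-null cells (labelled G/G, homozygous for the null allele fosBG, bred by intercrossing carriers after 20 generations of backcrossing to C57BL/6J) and 3 with RNA of wild-type C57BL/6J cells. Fosb encodes a transcription factor of the AP-1 family, and the allele is carried in every cell of the animal, so it was not limited to microglia. The labels call the arrays biological replicates 1 to 3 and do not say whether cultures came from separate litters or how many pups each pooled, so the p-values measure the spread between these arrays. All values are log2 signals, on which a difference of 1 is a doubling, and levels of different probe sets are not compared.

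Cells copy their DNA once per division. In G1 the origin recognition complex, Cdc6 and Cdt1 load the ring of Mcm2 to Mcm7 onto origins. Cyclin E and E2F factors promote entry into S phase, when Cdc45 and the GINS complex turn that ring into an active helicase. Primase and DNA polymerase alpha then start each strand, polymerases epsilon and delta extend them, and histones are placed behind the fork. Many of these genes are transcribed mainly from late G1 into S phase, under E2F control, and are low in resting cells. Microglia divide slowly in the adult brain and more readily in the newborn brain and in mixed glial culture.

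The main question was whether these genes differ between fosB-null and wild-type microglia. The mean signal was higher in fosB-null arrays in all 39 members, against 30.9% of the 23410 tested probe sets, of which 27.8% had exactly the same value in both arrays of every replicate number. The median difference over the members was 0.23 (quartiles 0.14 and 0.37), beside 0.00 over all tested probe sets. The largest belonged to Rrm2 at 0.72, Pole at 0.56, Dtl and Ccne1 at 0.48 each, Ccne2 and Uhrf1 at 0.44 each and Tk1 at 0.42. In bulk RNA, a larger share of cells in S phase and more of these transcripts per cell cannot be told apart. None of the 39 passed the limma test at an adjusted p of 0.05, with 1 of 23410 probe sets (0.00427%) called in all, and the adjusted p was 1 for every member. None reached an unadjusted p under 0.05 either, where 0.269% of probe sets did with a higher fosB-null signal; the lowest was that of Ccne1 at 0.0528. The median SD over members was 0.20 among wild-type and 0.24 among fosB-null arrays (n = 3 each), about the size of the median difference. Leaving out fosB-null array 2 lowered the median difference to 0.09 and leaving out wild-type array 1 lowered it to 0.13.

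**Figure D1:**
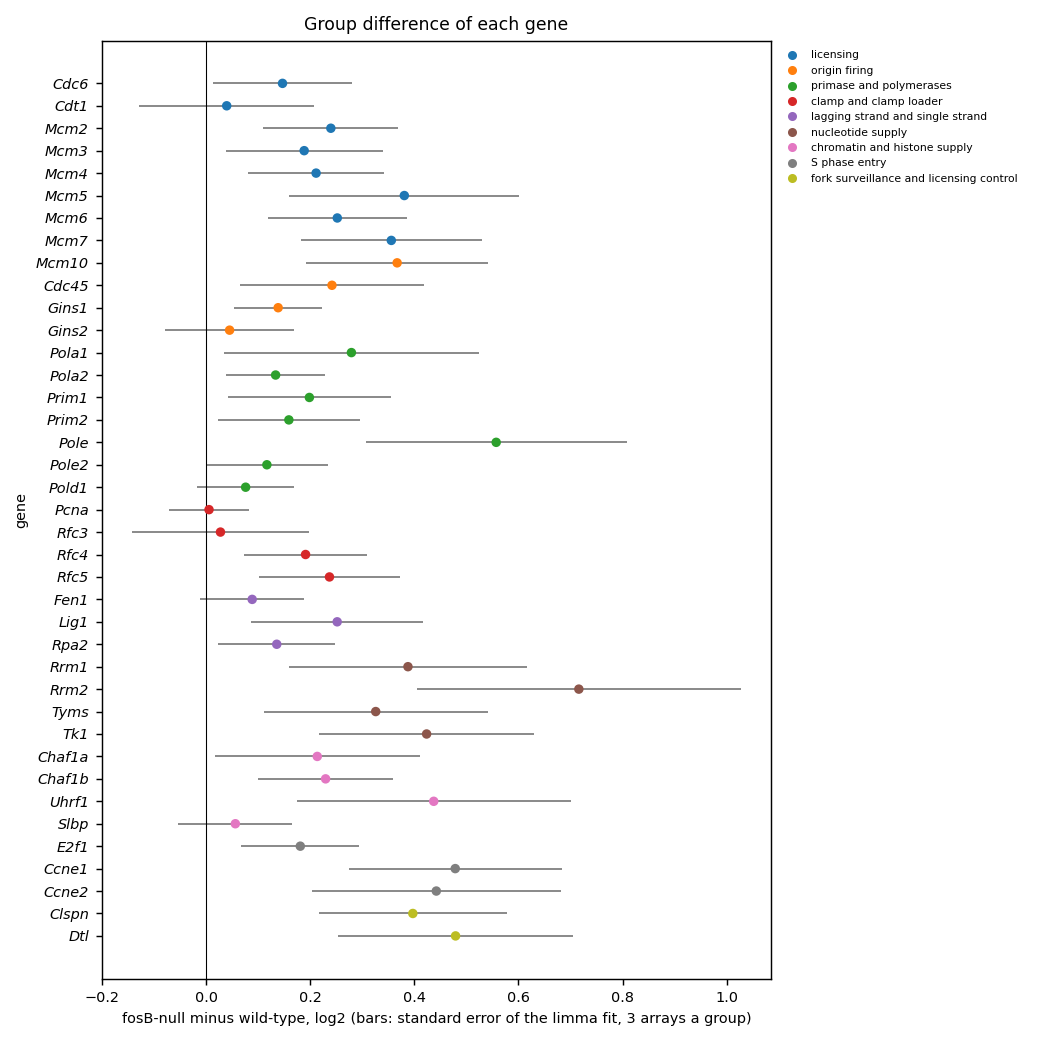
Group difference of each of the 39 genes in log2 units, as the fosB-null mean less the wild-type mean (points, coloured by role) with the standard error of the limma fit (bars, 3 arrays a group). All points lie above 0, Rrm2 is farthest out at 0.72, and Pcna lies at 0.01.

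The difference was not spread evenly over the arrays. Arrays carrying the same replicate number go together: their deviations from the group means correlated at 0.91, 0.82 and 0.82 over the tested probe sets, and 62.3%, 54.7% and 56.0% of these had identical values in both arrays of number 1, 2 and 3. No source used here explains such ties, and a tie is not a measurement of equality. Within number 1 the median member was higher in fosB-null cells by 0.24, within number 2 by 0.41, and within number 3 the median was 0.00. In number 1, 35 members were higher, none lower and 4 tied. In number 2, 38 were higher and 1 tied. In number 3, 7 were higher, 19 lower and 13 tied. Over all 23410 tested probe sets, 4182 were higher and 4655 lower in number 1, and 5471 and 5142 in number 2. In number 3 they were 2942 and 7354, so lower values outnumbered higher ones there over all probe sets too. A difference above 0.2 was found in 24 members in number 1 (2.05% of all tested probe sets), in 34 in number 2 (3.20%) and in 0 in number 3 (1.50%). In number 3, C5ar2, the complement receptor gene that was the call over all genes, was lower by -1.74. That call used the arrays of number 3, so its value is no separate check of them.

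**Figure D2:**
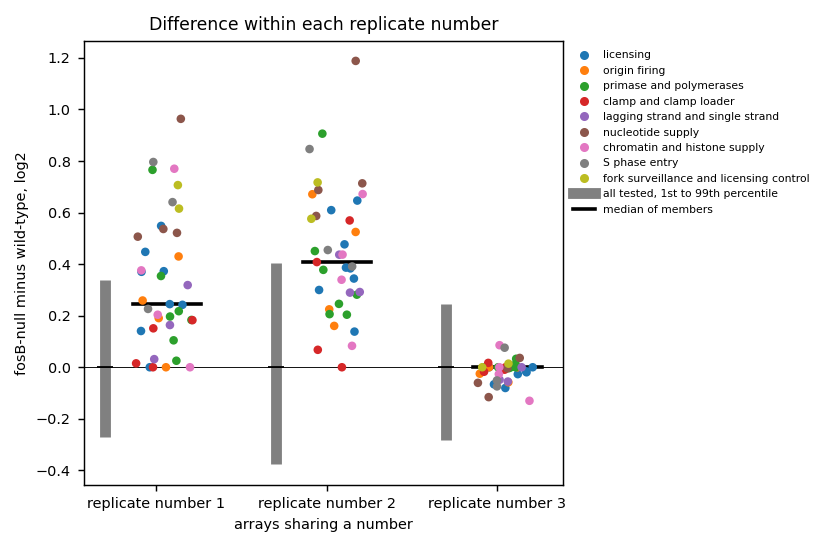
Difference within each replicate number, fosB-null minus wild-type, for the 39 genes (points, coloured by role), their median (black line) and the 1st to 99th percentile of all tested probe sets (grey bar). The medians lie at 0.24, 0.41 and 0.00, and in number 3 all 39 points lie between -0.13 and 0.09.

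Seen array by array, the list had an order that does not follow genotype alone. Wild-type array 1 was the lowest of the 6 arrays, or tied for lowest, in 35 members. FosB-null array 2 was the highest, or tied for highest, in all 39. Both held at once in 35 members (89.7%) and in 19.6% of all tested probe sets; this pattern was picked out after the values were seen. The other 4 arrays lay close together, with a median range of 0.16 per member, while wild-type array 1 lay a median of 0.31 below their mean and fosB-null array 2 a median of 0.38 above it. FosB-null array 1 and wild-type array 3 lay close together on these genes: 18 members were higher in the former and 21 lower, with a median difference of -0.02. Among wild-type arrays alone, array 3 exceeded array 1 by a median of 0.36 and array 2 exceeded array 1 by 0.30, both larger than the group difference. The arrays of number 2 had a higher overall signal, with all-probe-set medians of 7.89 and 7.92 against 7.76 to 7.83 in the other 4. With every array centred on its median, wild-type 1 was lowest and fosB-null 2 highest in 27 members (69.2%). The share over all tested probe sets was not counted for centred arrays, so this value has no base to be read against.

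**Figure D3:**
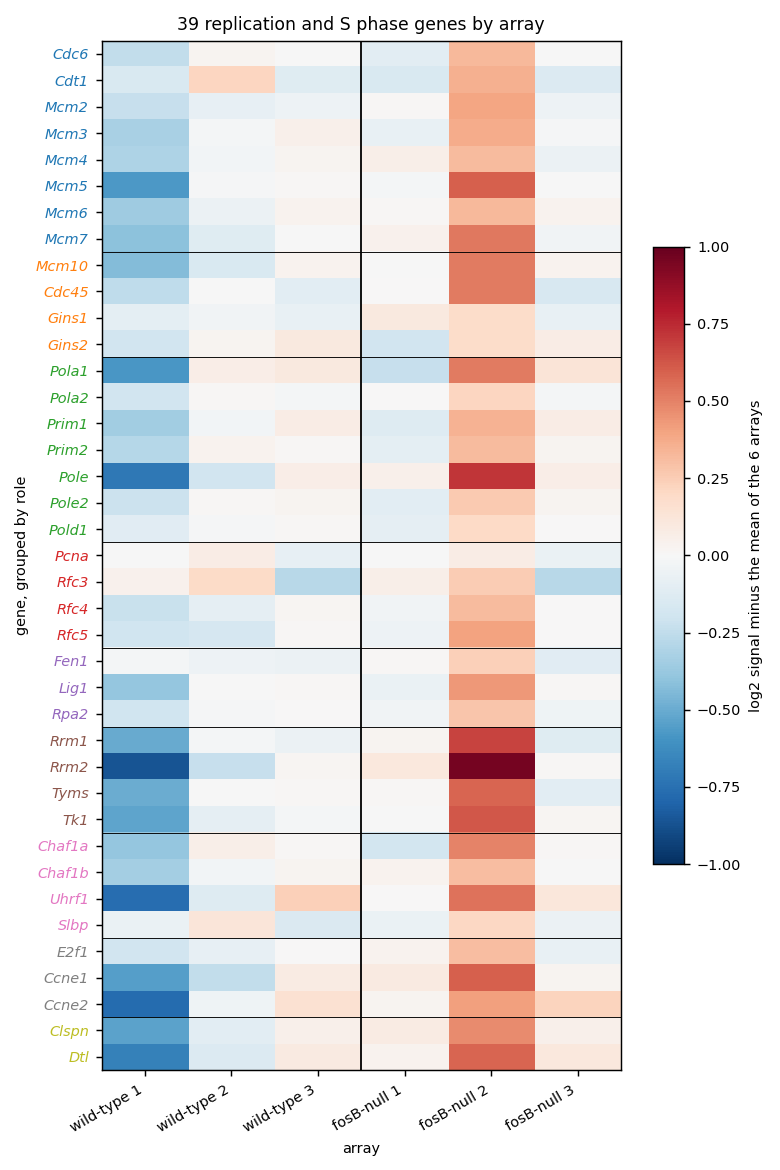
Log2 signal of each gene (rows, grouped by role) in each of the 6 arrays (columns), shown as the difference from that gene's mean over the 6 arrays. Wild-type 1 is the blue column, lowest or tied in 35 of 39 rows. FosB-null 2 is the red column, highest or tied in 39 of 39, while the other 4 columns stay near 0.

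Because same-numbered arrays go together, fits that use the number were compared. With the replicate number as a fixed block limma called 0 members and gave 0 an unadjusted p under 0.05. With the number as a random block it again called 0, with a lowest adjusted p of 0.365. It gave 27 members an unadjusted p under 0.05, all higher in fosB-null cells, against 3.34% of tested probe sets. That fit takes 1 correlation within numbers from all tested probe sets, tied values included. How far the ties set these p-values was not tested. With the arrays centred on their medians and no block, 10 members reached that unadjusted threshold (0.602% of probe sets). With the block and without both arrays of number 3, a fit added after the values were seen, 15 did (1.95%), led by Dtl whose limma p was 0.000956 before adjustment and 0.411 after it. Every fosB-null array lay above every wild-type array in 1 member, Tk1, or 2.56%, against 0.410% of all probe sets. The difference was positive in each number in 5 members (12.8%, against 2.20%), namely Pola1, Prim2, Tk1, Ccne2 and Dtl, by 0.01 to 0.08 in number 3. The other, less bright probe set of Tk1 was at -0.02 in number 3 and met neither rule. A probe set tied in any number can meet neither of these rules. Such ties were present in 19890 of the 23410 tested probe sets and in 17 of the 39 members. They hold down the share over all probe sets more than that of the members.

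The upstream sequences of 4 members are shown because their group differences were among the larger ones; each is the member with the largest group difference in its role among those with a promoter entry in RefSeq (build GRCm38.p6). They are the 250 bases before the annotated start of Rrm2 (chr12:24708004-24708253, plus strand), Dtl (chr1:191575545-191575794, minus strand), Ccne1 (chr7:38107491-38107740, minus strand) and Uhrf1 (chr17:56303087-56303336, plus strand, the more upstream of its 2 listed starts). Capitals mark matches to the E2F words TTTCCCGC, TTTGGCGC, TTTGCCGC and TTTCGCGC, searched on both strands.
Rrm2: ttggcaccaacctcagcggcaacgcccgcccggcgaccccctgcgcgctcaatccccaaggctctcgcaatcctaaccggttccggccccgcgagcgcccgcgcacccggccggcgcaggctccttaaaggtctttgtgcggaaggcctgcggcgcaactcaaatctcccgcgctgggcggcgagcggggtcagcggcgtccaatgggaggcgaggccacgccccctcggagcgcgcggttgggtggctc
Dtl: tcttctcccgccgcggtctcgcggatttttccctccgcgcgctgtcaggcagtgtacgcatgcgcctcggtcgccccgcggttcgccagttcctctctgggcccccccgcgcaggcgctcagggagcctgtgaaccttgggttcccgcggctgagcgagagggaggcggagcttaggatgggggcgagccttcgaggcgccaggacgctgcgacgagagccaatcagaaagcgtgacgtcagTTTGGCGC
Ccne1: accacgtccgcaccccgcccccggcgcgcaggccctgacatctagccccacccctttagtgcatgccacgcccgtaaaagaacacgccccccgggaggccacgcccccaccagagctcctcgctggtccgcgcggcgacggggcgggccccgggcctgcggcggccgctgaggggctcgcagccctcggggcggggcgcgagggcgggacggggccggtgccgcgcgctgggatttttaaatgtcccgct
Uhrf1: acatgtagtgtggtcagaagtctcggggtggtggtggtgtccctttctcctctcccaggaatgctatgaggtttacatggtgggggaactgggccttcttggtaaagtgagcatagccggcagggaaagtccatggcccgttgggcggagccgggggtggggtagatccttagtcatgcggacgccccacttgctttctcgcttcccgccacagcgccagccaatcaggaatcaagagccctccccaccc
Of these 4, Dtl held such a word, directly before its start at positions -8 to -1. The other listed start of Uhrf1 also had 1, and no start of Rrm2 or Ccne1 had any, which says only that these letters are not in the 300 bases searched around each start.

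E2F words were present before the start in 4 of the licensing genes, whose products form or load the helicase ring. The stretches with those matches, with 10 bases on either side, are from Cdc6 (chr11:98908003-98908030, plus strand), Mcm5 (chr8:75109346-75109377, plus strand), Mcm6 (chr1:128359735-128359825, minus strand) and Mcm7 (chr5:138172031-138172058, minus strand).
Cdc6: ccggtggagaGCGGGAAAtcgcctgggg
Mcm5: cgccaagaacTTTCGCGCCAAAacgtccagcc
Mcm6: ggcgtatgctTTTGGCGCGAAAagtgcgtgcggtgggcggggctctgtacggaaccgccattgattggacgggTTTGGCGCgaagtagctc
Mcm7: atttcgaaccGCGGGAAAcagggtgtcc
In Mcm5 and in the upstream match of Mcm6 a word on the printed strand and a word on the opposite strand overlapped, so the capitals run on as 1 block. Cdt1 and Mcm3 had their matches after the start, at positions 33 to 40 and at 20 to 27 and 39 to 46. Over the 33 members with an entry, 14 (42.4%) had at least 1 E2F word at a listed start, against 704 of 27025 genes (2.60%) and 2.26% of all 32851 windows of this length. The CCAAT box was held by 57.6% of members and 41.1% of all genes, and TTTGAA or TTCGAA, the words of the cell cycle homology region, by 15.2% and 21.7%. A match is a description of the letters and does not show that a factor bound there. The members with an E2F word had a median group difference of 0.25 (n = 14, 0.03 to 0.48) and those without had 0.23 (n = 19, 0.01 to 0.72), so the ranges overlapped.

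Licensing genes, which encode the ring of the replicative helicase and its loaders Cdc6 and Cdt1, had differences of 0.04 to 0.38. The 6 subunits of the Mcm2 to Mcm7 ring differed between the groups by 0.19 to 0.38, with a median of 0.25, or 0.37, 0.43 and -0.02 in numbers 1, 2 and 3. Mcm5 read 9.74, 10.29 and 10.32 in wild-type arrays 1, 2 and 3 and 10.28, 10.90 and 10.30 in fosB-null arrays. The groups overlapped, since wild-type arrays 2 and 3 were close to fosB-null arrays 1 and 3. Its difference was 0.38 with a standard error of 0.22 (1.30-fold, limma unadjusted p = 0.130). Standard errors given by gene come from the fit without a block, so they include the spread between replicate numbers. Mcm7 had 9.86, 10.15 and 10.26 against 10.31, 10.80 and 10.24, a difference of 0.36 ± 0.17 (SE). Here only fosB-null array 3 lay within the wild-type range. Mcm6 had 10.13, 10.43 and 10.52 against 10.50, 10.81 and 10.52, and differed by 0.25 ± 0.13. Mcm2, which had the narrowest wild-type spread of the ring, had 9.94, 10.09 and 10.12 against 10.18, 10.57 and 10.12, and differed by 0.24 ± 0.13. Mcm4 and Mcm3 differed by 0.21 ± 0.13 and 0.19 ± 0.15, and both were slightly lower in fosB-null cells in number 3, by -0.08 and -0.07. In number 3, Mcm2 and Mcm6 were tied to the last digit.

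**Figure D4:**
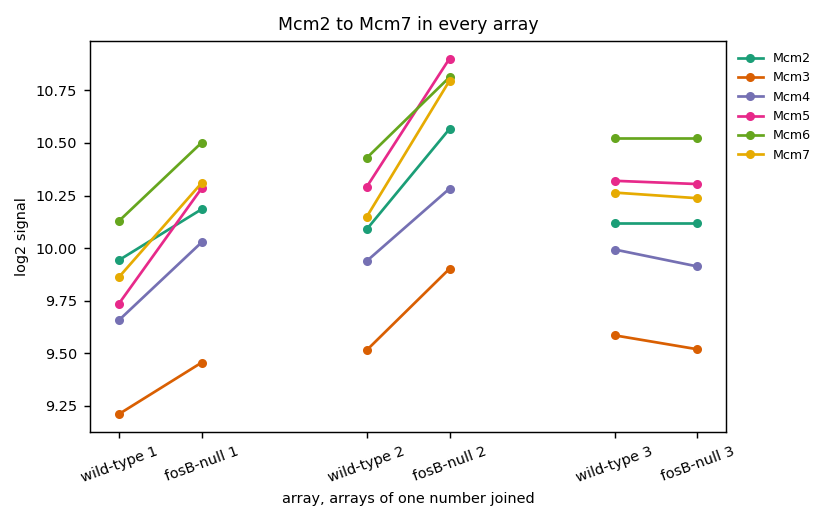
Log2 signal of Mcm2 to Mcm7, the subunits of the replicative helicase ring, in every array, with arrays of the same replicate number joined by a line; heights of different genes are not comparable. In numbers 1 and 2 the fosB-null end of all 6 lines is the higher, and in number 3 the lines are level or slightly lower at that end.

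The 2 loaders of that ring stood lower in the list. Cdc6, the ATPase that brings the ring to the origin, had 7.64, 7.90 and 7.88 in wild-type and 7.78, 8.20 and 7.88 in fosB-null arrays, a difference of 0.15 ± 0.13 (SE). Cdt1, its partner, which is degraded once S phase begins, differed by 0.04 ± 0.17 (SE). Its values were 10.29, 10.66 and 10.32 against 10.29, 10.80 and 10.30, so number 1 was tied, and the sign of the group difference turned when wild-type array 1 or 3 or fosB-null array 2 was left out.

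Of the factors that turn the loaded ring into a moving helicase, Mcm10 differed most. It had 8.32, 8.60 and 8.79 in wild-type arrays and 8.75, 9.27 and 8.79 in fosB-null arrays, a difference of 0.37 ± 0.18 (SE, 1.29-fold), and 2 of the 3 fosB-null arrays lay within the wild-type range. Cdc45, the helicase cofactor, differed by 0.24 ± 0.18, with 0.26, 0.52 and -0.06 in numbers 1, 2 and 3. The GINS subunits Gins1 and Gins2 differed by 0.14 ± 0.09 and 0.05 ± 0.12 (SE). Gins1 had a narrow wild-type spread of 8.23, 8.29 and 8.25, which fosB-null arrays 1 and 2 exceeded at 8.42 and 8.51.

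Among primase and polymerase genes, Pole, the catalytic subunit of the leading strand polymerase epsilon, stood out. Its signal was 8.20, 8.73 and 8.99 in wild-type and 8.97, 9.64 and 8.99 in fosB-null arrays. Number 3 was tied, and the difference of 0.56 ± 0.25 (SE, 1.47-fold, limma unadjusted p = 0.0627) came from 0.77 in number 1 and 0.91 in number 2. Pole2, the accessory subunit of the same enzyme, differed by 0.12 ± 0.12, and Pold1, the catalytic subunit of polymerase delta, by 0.08 ± 0.09. Pola1, which encodes the catalytic subunit of polymerase alpha, had 8.02, 8.68 and 8.71 against 8.38, 9.13 and 8.74, a difference of 0.28 ± 0.25. Of the fosB-null arrays only array 1 lay within the wild-type range, array 3 lay just above it, and the wild-type SD of 0.39 was larger than the difference. Within numbers 1, 2 and 3 Pola1 was higher in fosB-null cells by 0.35, 0.45 and 0.03. With the number as a fixed block its standard error was 0.12 (limma unadjusted p = 0.119). Its subunit partner Pola2 and the primase genes Prim1 and Prim2 differed by 0.13, 0.20 and 0.16, with the same split: Prim1 had 0.22, 0.38 and 0.00 in numbers 1, 2 and 3.

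Pcna, the sliding clamp that holds polymerases on DNA, was the member with the smallest difference. It read 13.53, 13.61 and 13.44 in wild-type and 13.53, 13.61 and 13.46 in fosB-null arrays. Numbers 1 and 2 were exactly tied, also in its other probe set, and the difference of 0.01 ± 0.08 (SE) turned to -0.00126 with quantile normalization. The clamp loader subunits spread around it: Rfc5 differed by 0.24 ± 0.14, Rfc4 by 0.19 ± 0.12 and Rfc3 by 0.03 ± 0.17. Rfc3 followed the replicate number more than the genotype, at 9.49, 9.64 and 9.17 against 9.51, 9.70 and 9.17.

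Genes of lagging strand completion had intermediate values. Lig1, the ligase that seals Okazaki fragments, had 9.14, 9.52 and 9.54 in wild-type and 9.46, 9.96 and 9.54 in fosB-null arrays, a difference of 0.25 ± 0.17 (SE). Lig1 lies on chromosome 7, as Fosb does, 95 measured genes away; Ccne1, Pold1 and Rrm1 are on the same chromosome at 312, 383 and 818 genes. Whether the chromosome segment that came with the null allele bears on these 4 genes was not tested. The Fosb probe set itself differed by -0.12 ± 0.10 (SE); which exons it reads, and whether the mutation removes them, was not established, so this value is no check of the genotype labels. Fen1, the flap endonuclease, differed by 0.09 ± 0.10, almost wholly through fosB-null array 2 at 8.96 against 8.61 to 8.74 elsewhere. Rpa2, a subunit of the protein that coats single-stranded DNA, differed by 0.14 ± 0.11.

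Nucleotide supply was the role with the largest median difference among roles of 4 or more genes, at 0.41, or 0.53, 0.70 and -0.03 in numbers 1, 2 and 3. Rrm2, the regulated subunit of ribonucleotide reductase, which makes deoxynucleotides, had 8.74, 9.37 and 9.62 in wild-type and 9.71, 10.56 and 9.62 in fosB-null arrays. Wild-type array 3 and fosB-null array 3 were nearly equal, and fosB-null arrays 1 and 2 lay above all wild-type arrays. The difference was 0.72 ± 0.31 (SE, 1.64-fold, limma unadjusted p = 0.0558). Rrm1, the large subunit of the same enzyme, had 10.61, 11.10 and 11.06 against 11.15, 11.79 and 11.00, a difference of 0.39 ± 0.23. Tk1, the S phase thymidine kinase, had 8.85, 9.29 and 9.36 against 9.37, 9.9999 and 9.40. These groups just failed to overlap, and the difference was 0.42 ± 0.21 (1.34-fold). In the other probe set of Tk1 the difference was also 0.42, but it was -0.02 in number 3. Tyms, thymidylate synthase, had 8.73, 9.22 and 9.24 against 9.24, 9.81 and 9.12, differed by 0.33 ± 0.21 and had the second lowest value of any member in number 3, at -0.12.

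The chromatin genes Uhrf1, Chaf1a and Chaf1b were lowest in wild-type array 1 and highest in fosB-null array 2, and Slbp was not lowest there. Uhrf1, which recruits maintenance DNA methylation to newly copied DNA, had 8.50, 9.13 and 9.50 in wild-type and 9.27, 9.80 and 9.37 in fosB-null arrays. Its wild-type SD of 0.51 was the widest of the list and the difference 0.44 ± 0.26 (SE). In number 3 it was lower by -0.13, the lowest value of any member there. Chaf1a and Chaf1b, subunits of the assembly factor that deposits histones behind the fork, differed by 0.21 ± 0.20 and 0.23 ± 0.13. Slbp, which binds the ends of histone messages, differed by 0.06 ± 0.11 and had its largest value, 0.09, in number 3.

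Genes that commit cells to S phase included the cyclin E pair. Ccne1 had 8.72, 9.02 and 9.35 in wild-type and 9.36, 9.87 and 9.30 in fosB-null arrays, a difference of 0.48 ± 0.20 (SE, 1.39-fold). Ccne2 had 7.72, 8.45 and 8.64 against 8.51, 8.90 and 8.71, or 0.44 ± 0.24. For Ccne2 the low value of wild-type array 1 set most of the spread, and the difference in number 3 was 0.08. E2f1, the activating E2F factor, differed by 0.18 ± 0.11, with 0.23, 0.39 and -0.07 in the numbers. Clspn, which carries the replication stress signal to the kinase Chk1, had 7.33, 7.76 and 7.91 against 7.95, 8.34 and 7.91, a difference of 0.40 ± 0.18 (1.32-fold). Dtl, the adaptor that marks Cdt1 for destruction at replicating DNA, had 8.29, 8.82 and 9.05 against 8.99, 9.54 and 9.07. Its difference of 0.48 ± 0.23 (1.39-fold) was 0.71, 0.72 and 0.01 in the numbers.

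Other genes of replication outside the 39, from a list of 91 of which 89 were measured, had a smaller median of 0.07, with 66 higher, 20 lower and 3 at 0, where 30.9% of all tested probe sets were higher. None passed the adjusted threshold (limma), and 4 (4.49%) had an unadjusted p under 0.05, all with a higher fosB-null signal, against 0.269% of all tested probe sets. These were Wdhd1, a fork scaffold, at 0.35 (limma unadjusted p = 0.0346), Mms22l and Tonsl, partners in fork repair, at 0.29 and 0.23 (0.0401 and 0.0440), and Hells, a chromatin remodeller, at 0.48 (0.0415). By subgroup, the 6 origin recognition genes had a median of 0.05, the 7 further polymerase and primase subunit genes 0.00 and the 8 further nucleotide genes -0.02. The 22 S phase control genes had 0.05 (-0.11 to 0.87), the 10 firing kinase and scaffold genes 0.09 and the 10 chromatin and methylation genes 0.08. The 3 other MCM genes had 0.05 and the 7 further clamp loader and single strand genes 0.03. Fork protection and repair genes had a median of 0.23 (n = 16), or 0.28, 0.38 and 0.00 in the numbers. No test compares these lists.

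Mitosis genes had larger differences of the same shape, with a median of 0.51 over 29 measured genes and 0.69, 0.84 and 0.00 in numbers 1, 2 and 3. Of these 28 were higher and 1 lower, and 7 higher and 1 lower had a limma unadjusted p under 0.05, none an adjusted one. Over all tested probe sets 30.9% had a higher mean, 0.269% were higher at that unadjusted threshold and 169 of 23410 passed it in either direction. The lower gene, named after its values were seen, was Pttg1 (securin, which holds back chromatid separation), at -0.21, -0.20 and -0.19 in the numbers, a difference also present in number 3.

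**Figure D5:**
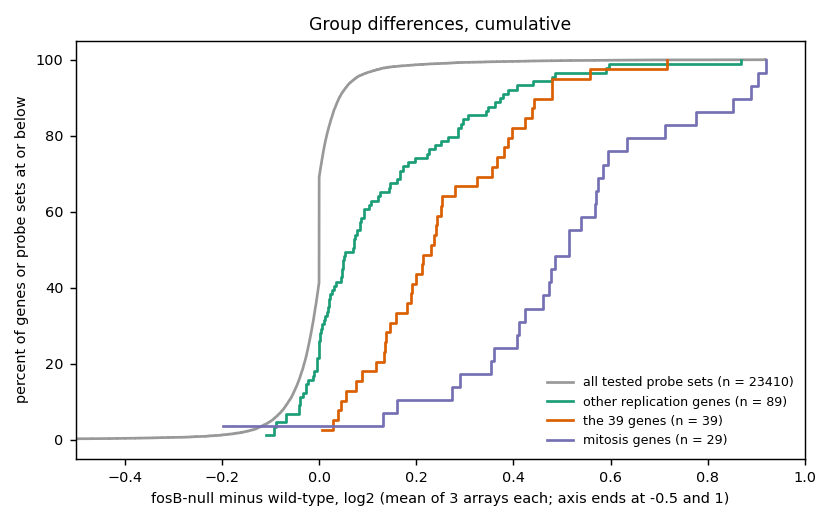
Cumulative distribution of the group difference in log2 units (the fosB-null mean less the wild-type mean) for all 23410 tested probe sets, 89 other replication genes, the 39 genes and 29 mitosis genes. The curves cross 50 percent near 0.00, 0.07, 0.23 and 0.51.

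Marker genes were read beside these results. Levels of different probe sets cannot be ranked on arrays, so each list is compared only between the groups. Over all 23410 tested probe sets, 7243 were higher, 9657 lower and 6510 at 0 by group mean, and 27.8% were tied in all numbers. The mean signal of 14 measured microglia markers ran from 11.87 to 12.04 in wild-type and from 11.91 to 12.05 in fosB-null arrays, with 10 higher and 4 lower by group mean. The astrocyte mean ran from 7.80 to 7.91 in wild-type and from 7.79 to 7.91 in fosB-null arrays, with 9 of 13 tied in all numbers, Gfap and Aqp4 among them. For the oligodendrocyte lineage it ran from 8.03 to 8.26 and from 8.04 to 8.19, and of its 11 measured markers 1 was higher, 5 lower and 5 at 0. The precursor markers Pdgfra and Cspg4 were at 0.02 and -0.20, the latter with -0.36, -0.43 and 0.20 in numbers 1, 2 and 3. The myelin genes Mbp, Mag and Mog were at -0.21, -0.15 and -0.05, and Mbp, at -0.32, -0.24 and -0.06 in the numbers, had the lowest limma unadjusted p of the 67 measured markers, 0.0664, with an adjusted p of 1. Neuron markers averaged 7.08 to 7.16 in wild-type and 7.08 to 7.15 in fosB-null arrays, fibroblast and mural markers 7.20 to 7.37 and 7.21 to 7.40, and endothelial markers 7.85 to 8.01 and 7.86 to 8.04, so these lists overlapped between the groups. The median difference was 0.02 for microglia markers and 0.00 for the markers of the other 5 cell types, beside 0.00 over all tested probe sets. The part of other cell types in the values above was not tested.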

How the data were processed

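Microglial RNA (100 ng) was labelled and hybridised to 6 Affymetrix arrays, per the labels' protocols. The submitters' processing notes name Affymetrix Expression Console; the sources used here do not give how it summarised and normalized the probes. The authors deposited 1 signal per probe set and array, taken as log2 from its range (1.73 to 14.6). Genes come from the platform's annotation table, with symbols updated through RefSeq (21698 of 21789 single-gene probe sets). The test was limma's (3.58.1, under R 4.3.3: lmFit and eBayes, two-sided, no block, no filter) on the 23410 probe sets with at least 1 symbol, with Benjamini-Hochberg adjustment over all of them at 0.05. The fit was tested on simulated data. Those values were independent, with a common SD and without ties or a link between same-numbered arrays. They therefore do not show how the fit performs on data with these features. The number of arrays limits the precision. Replicate numbers pair the arrays by their values (correlations of 0.91, 0.82 and 0.82); what a number stands for is not in the labels. The members, gene lists and tests were chosen with earlier results of these data known. All members are named; of the other replication genes, those with an unadjusted p under 0.05. Promoter windows are RefSeq's (GRCm38.p6), 33 of 39 members matched. Other settings tried were median centring, quantile normalization, leaving out the dimmest 40%, all probe sets, eBayes options, array weights, blocks, the mean of a gene's probe sets, and leaving out arrays.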

Additional observations from a re-analysis of the deposited data

How the results depend on the processing

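No alternative called a member: the count at an adjusted p under 0.05 stayed at 0 in all 20 other fits and at an adjusted p under 0.1. Members with a limma unadjusted p under 0.05, 0 as reported, numbered 2 with quantile normalization, 10 with median centring, 3 without the dimmest 40%, 2 with an intensity trend, 6 with array weights, 27 with the random replicate block, 15 with the replicate block without number 3, 0 with the replicate block, and 0 to 8 with arrays left out (8 without wild-type array 3). All were higher in fosB-null cells. The probe sets higher at that threshold over all genes numbered, in the same order, 95, 141, 93 (of 14046), 86, 148, 782, 456, 130 and 20 to 147 (147 without wild-type array 3), of 23410 tested where not stated. Probe sets called over all genes numbered 1 as reported, 0 with the replicate block with or without number 3, 47 with the random block, and 0 to 2 with arrays left out. Members with a higher fosB-null mean numbered 38 with quantile normalization, 22 of 22 without those tied in any number, and 32 to 39 with arrays left out. The median difference ran from 0.09 without fosB-null array 2 to 0.36 without both arrays of number 3, and was 0.11 without both of number 2. Signs turned for 7 members. With quantile normalization Pcna was at -0.00126. With arrays left out the ranges were -0.127 to 0.157 for Cdt1, -0.0391 to 0.152 for Gins2, -0.00280 to 0.139 for Pold1, -0.0358 to 0.0459 for Pcna, -0.103 to 0.172 for Rfc3, -0.0120 to 0.167 for Fen1 and -0.0328 to 0.132 for Slbp. The cause was not tested.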
